A study of Mus musculus with 743 samples.

Results

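Stat3 and the cytokine receptor machinery that signals through gp130 were followed in single Schwann cells (SCs), the glial cells of peripheral nerves, at postnatal day 1. The 8 genes are Il6st, which encodes gp130, its partner receptors Lifr, Osmr and Cntfr, the kinases Jak1 and Jak2, the transcription factor Stat3 and the feedback inhibitor Socs3, out of 25700 genes in the table. The genes were listed by pathway, and the cells were grouped by a rule that was selected on measured levels of 3 other genes. Among the 621 cells with at least 1500 detected genes, 110 were called cycling (Mki67 and Top2a together at 50 CPM or more, reads of a gene scaled to a library total of 1000000), 119 promyelinating (not cycling, and Ncmap at 50 CPM or more) and 392 remained as other cells. The lowest cycling cell lay at 63.4 CPM of Mki67 plus Top2a and the highest cell below the limit at 44.2 CPM, while for Ncmap the neighbours of the limit lay at 50.3 and 43.3 CPM. These 3 genes are described here only as the choice of classes and were left out of every test.

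The study profiled mouse sciatic nerves during development, and the cells used here belong to its single-cell Smart-seq2 experiment on sorted SCs. Cells came from mice on a C57bl/6J background that carried P0Cre, the Cre-dependent eYFP reporter ReYFP and βAct-DsRed, were sorted as eYFP-positive, and were distributed 1 per well over 2 plates. All cells shared this genotype and none was treated. The reporter marks any cell with a history of P0 promoter activity, each plate held cells of its own pool of male and female pups, and the plate was therefore the replicate (n = 2). Reads were summed over the cells of a class on a plate, giving 6 sums.

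Cytokines of the interleukin-6 family bind a specific receptor chain that pairs with the shared chain gp130. Receptor-bound Jak kinases then phosphorylate gp130, Stat3 docks there, is phosphorylated and enters the nucleus, and Stat3 switches on Socs3, whose product blocks the receptor and the kinases. In peripheral nerves the pathway is best known after injury, when ciliary neurotrophic factor (Cntf) and leukaemia inhibitory factor (Lif) act on neurons and SCs, and Stat3 has been tied to the survival of repair SCs. Transcript counts report neither phosphorylated Stat3 nor protein.

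The only member with a STAT-type palindrome in its RefSeq promoter window was Socs3, and the stretch that holds it is shown for that reason, beside the whole window of Stat3, which has none. Both strands of the 250 bases before the RefSeq start were covered by the search for TTCNNNGAA, which reads the same on either strand. The Socs3 stretch lies at chr11:117969487-117969546 on the minus strand of GRCm38.p6, from 180 to 121 bases before that start. It touched none of the annotated exons of Socs3 in GENCODE M21 and lay inside the annotated span of the gene. The Stat3 window is chr11:100939541-100939790, also on the minus strand, and lies outside the annotated gene. Capitals mark the palindrome, and both sequences are from RefSeq.
Socs3: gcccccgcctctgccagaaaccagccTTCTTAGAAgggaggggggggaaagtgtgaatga
Stat3: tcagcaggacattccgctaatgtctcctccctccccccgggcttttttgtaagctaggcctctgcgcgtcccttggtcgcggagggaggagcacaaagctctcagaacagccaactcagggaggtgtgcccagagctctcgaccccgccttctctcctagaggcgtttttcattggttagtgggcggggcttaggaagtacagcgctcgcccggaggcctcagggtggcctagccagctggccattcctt
Of 32851 promoter windows of this length, 7.02% held TTCNNNGAA. The stricter form TTCCNGGAA, which is contained in it, was found in 0 of the 8 members and in 0.913% of all windows. Counted by gene, as the members are, 8.13% of 27025 genes held TTCNNNGAA and 1.092% held TTCCNGGAA in a window. A match is a description of letters and not a binding site.

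The sums held between 45073128 and 172878954 reads, so that 1 read was worth 0.00578 to 0.0222 CPM, and the classes had medians of 2775 to 3690 detected genes per cell. The label of the sorted cells was checked against Sox10, S100b and Erbb3, which together reached 443 to 757 CPM in every sum. Among markers of other nerve cells, Pdgfra, Cdh5, Kdr, Ptprc, Tyrobp, Acta2 and Rgs5 had 0 reads, the 5 endothelial markers together stayed at or below 2.91 CPM, the 3 fibroblast-like markers at or below 36.7 CPM, the 4 immune markers at or below 20.7 CPM and the 4 mural markers at or below 56.8 CPM. Pdgfrb and Dcn, of which cycling cells held 0 and 26 reads in all, are given with Stat3. In edgeR's test, 6 of 7 proliferation markers were higher in cycling than in other cells, where 0.858% of all genes tested were called higher. Of 10 myelination markers, 7 were higher in promyelinating than in other cells, where 0.489% of all genes tested were. Both classes were cut on genes of these kinds, so these counts describe the classes and are no independent check. Cells from 1 class share animals and plate with the other classes, and all comparisons against other cells share those sums.

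Most of the ligands of the family were not detectable in these cells. Il6, Il11 and Osm had 0 reads in all 621 cells, and Lif had reads in 1 cell. At a count of 0, up to 0.483% of cells could hold a read, a limit over cells that leaves out the spread between plates. Cntf, which SCs of adult nerves are known for, was found in 13 cells. Its level was 9.46 and 1.11 CPM in cycling cells (plates 1 and 2), 8.17 and 0 CPM in promyelinating cells and 1.16 and 0.0752 CPM in other cells. Within every class the level was lower on plate 2, and on each plate it was higher in cycling than in other cells.

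Further ligands were found in few cells as well. Ctf1 (cardiotrophin 1) was read in 13 cells, Il27 in 3 and Clcf1 in 2. Cntf and Ctf1 passed the filter on low counts and were called by neither edgeR nor DESeq2 in any comparison, and neither reached an unadjusted p under 0.05.

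The shared receptor Il6st was higher in cycling than in promyelinating cells. Its levels were 67.7 and 108 CPM in cycling cells, 72.3 and 37.7 CPM in other cells and 9.38 and 19.9 CPM in promyelinating cells. Both promyelinating sums lay below all other sums, whereas cycling and other cells overlapped. Between cycling and promyelinating cells the difference was 2.61 on the log2 scale (SE 0.582, 6.10-fold, edgeR adjusted p = 0.0374). Between promyelinating and other cells it was -1.84 (SE 0.566) and did not pass the test (edgeR adjusted p = 0.22), although DESeq2 called it (adjusted p = 0.0312). That value rested on plate 1, where the log2 ratio was -2.89, against -0.82 on plate 2. Among cells with at least 2500 genes the cycling against promyelinating difference was 2.75 and missed the threshold (edgeR adjusted p = 0.0673).

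The shares of cells with an Il6st read followed the order of the mean levels. A read was found in 38.8% ± 9.57 of cycling, 28.6% ± 0.73 of other and 19.3% ± 5.71 of promyelinating cells (mean ± SD of 2 plates). Where it was read, Il6st was often high, with single cells up to 1299 CPM. The 3 highest cells held 58.8 to 74.6% of the reads of each promyelinating sum, 59.4 and 59.5% of the cycling sums and 30.2 and 33.45% of the sums of other cells.

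Of the partner receptors, Lifr was detected throughout and Osmr and Cntfr were nearly absent from the counts. Lifr, which pairs with gp130 to receive Lif and, with Cntfr, Cntf, was at 33.7 and 47.1 CPM in cycling, 48.0 and 33.4 CPM in other and 27.4 and 40.9 CPM in promyelinating cells. All 3 classes overlapped, and the log2 differences were between -0.18 and 0.27 with a SE of 0.506 each. Lifr therefore showed no detectable difference at the spread between these plates.

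Osmr, the oncostatin M receptor, had reads in 4 cells, 1 of them cycling, 3 of them other cells and 0 of 119 promyelinating. Its highest sum was 0.885 CPM. Cntfr, the chain that binds Cntf, had reads in 6 cells and reached 0.139 CPM at most, with 0 reads in promyelinating cells. It did not pass the filter on low counts, so that 7 of the 8 members were tested, and no fold is given for either receptor.

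The other receptor chains of the family were checked beside them. Il11ra1, the interleukin-11 receptor, was at 0.169 and 1.11 CPM in cycling, 23.3 and 16.95 CPM in other and 18.2 and 7.70 CPM in promyelinating cells. Both cycling sums were below all others, at a log2 difference from other cells of -4.90 (SE 1.28) that did not pass the test (edgeR adjusted p = 0.198), while DESeq2 and limma on log2(mean CPM + 1) called it. Il6ra, the interleukin-6 receptor, was read in 4 promyelinating cells of plate 1 at 3.62 CPM and in no other cell. Il27ra was read in 2 other cells and Il31ra in 22 cells at no more than 0.19 CPM in any sum.

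The kinase Jak1 had the higher level of the kinases and no called difference. It was at 85.7 and 113 CPM in cycling, 128 and 75.7 CPM in other and 37.6 and 59.3 CPM in promyelinating cells. Promyelinating cells were lowest on both plates, without overlap with the other classes. The log2 difference was 1.06 (SE 0.416) between cycling and promyelinating cells (edgeR adjusted p = 0.204) and -1.004 (SE 0.416) between promyelinating and other cells (edgeR adjusted p = 0.42). Limma on the mean of log2(CPM + 1) over cells called the former (1.08, adjusted p = 0.0452). Jak1 overlaps Raver2 and the small RNA gene Gm24468 on the opposite strand and the processed pseudogene Gm12785 on its own strand, and strand use in counting was not stated, so that its count is uncertain.

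Jak2 was read in 35 cells. Its sums were 11.1 and 21.5 CPM in cycling, 21.8 and 14.3 CPM in promyelinating and 9.29 and 2.95 CPM in other cells, and 3 cells held 98.4 to 99.2% of the reads of the promyelinating sums. The other class was below both others, with log2 differences of 1.49 (SE 0.912) for cycling and 1.62 (SE 0.916) for promyelinating cells, of which neither passed the test (edgeR adjusted p = 0.635 and 0.593). Of the 4 other kinases and adaptors that were tested (Tyk2, Gab1, Grb2 and Shc1), 0 were called by edgeR in any of the 3 comparisons. Of all genes tested, 0.971 to 5.86% were called, to which 0 of 4 is close. The median log2 differences of these 4 lay between -0.01 and 0.28. Shc1, an adaptor of growth factor receptors, was the only of them at an unadjusted p under 0.05, between cycling and promyelinating cells (-2.09, SE 0.603), where DESeq2 called it.

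Stat3 was lower in cycling cells than in both other classes. Its levels were 9.46 and 5.81 CPM in cycling, 50.4 and 46.0 CPM in promyelinating and 76.2 and 93.9 CPM in other cells. No class overlapped with another. Cycling cells differed from other cells by -3.36 on the log2 scale (SE 0.509, 10.3-fold, edgeR adjusted p = 0.0208) and from promyelinating cells by -2.61 (SE 0.493, 6.13-fold, edgeR adjusted p = 0.0193). Promyelinating and other cells differed by -0.74 (SE 0.466), which did not pass the test (edgeR adjusted p = 0.645).

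The mural marker Pdgfrb was, as Stat3 was, lowest in cycling cells, whereas the mural marker Cspg4 was highest there. Pdgfrb had 0 reads in cycling cells, against 43.7 and 13.8 CPM in promyelinating cells (reads in 22.7% of them) and 20.7 and 37.8 CPM in other cells. It was called in both comparisons with cycling cells (edgeR adjusted p = 0.0107 against other and 0.0035 against promyelinating cells). Dcn, a fibroblast-like marker, was at 0 and 0.577 CPM in cycling, 26.6 and 19.01 CPM in promyelinating and 36.7 and 10.5 CPM in other cells, which did not pass the test (edgeR adjusted p = 0.226 and 0.0816). The mural list as a whole was at 36.7 and 24.8 CPM in cycling, 56.8 and 35.1 CPM in promyelinating and 38.2 and 53.4 CPM in other cells. In cycling cells all of it was Cspg4, which was at 13.2 and 21.4 CPM in promyelinating and 17.5 and 15.6 CPM in other cells. Cspg4 was not called (edgeR adjusted p = 0.658 between cycling and other and 0.49 between cycling and promyelinating cells). Without the cells at 50 CPM or more over the 4 lists of such markers, 227 and 261 cells remained on plates 1 and 2, and Stat3 differed by -3.46 (SE 0.543, edgeR adjusted p = 0.0391) between cycling and other cells and by -2.71 (SE 0.526, edgeR adjusted p = 0.0291) between cycling and promyelinating cells. In the same cells Socs3 differed by -3.52 (SE 0.657, edgeR adjusted p = 0.0473) between promyelinating and other cells, and Il6st by 3.03 (SE 0.568, edgeR adjusted p = 0.0254) between cycling and promyelinating cells.

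**Figure D1:**
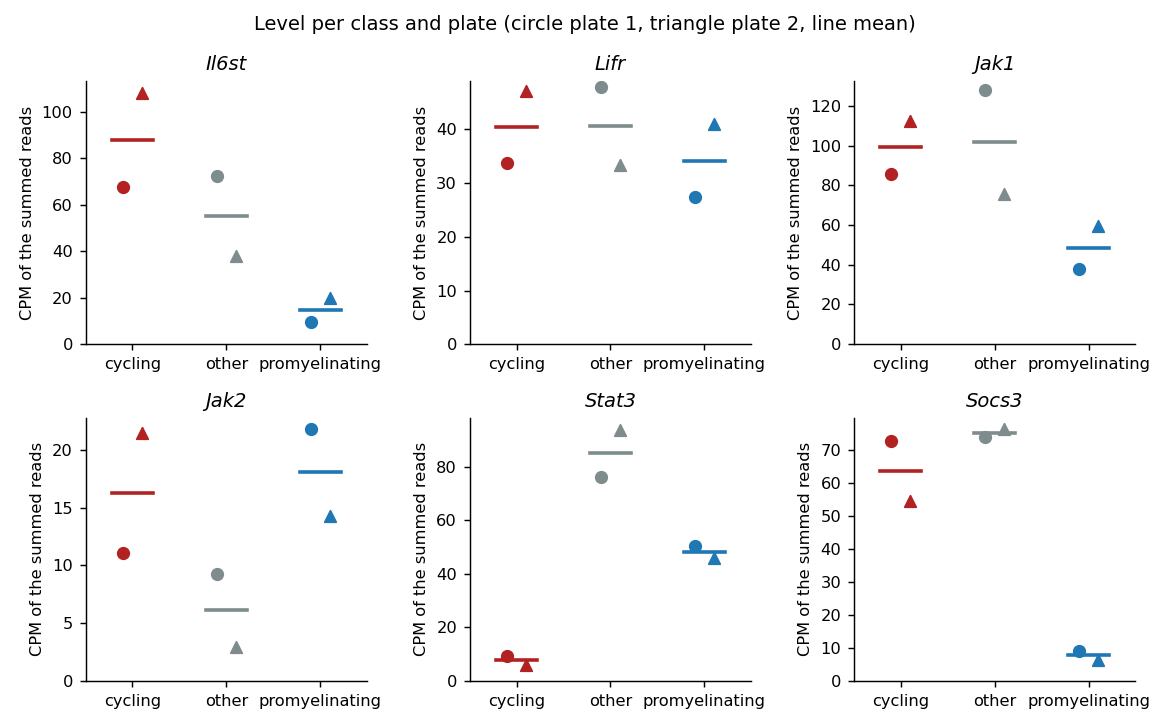
Level of 6 members in CPM of the summed reads (linear axes from 0), by class, for plate 1 (circles) and plate 2 (triangles) with the mean as a line. Stat3 is lowest in cycling cells, at 9.46 and 5.81 CPM, while Socs3 is lowest in promyelinating cells, at 9.19 and 6.45 CPM, and Lifr overlaps between all classes.

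The size of the Stat3 difference depended on how cells were weighted. When each cell counted equally, the mean over cells was 12.7 and 18.01 CPM in cycling and 73.7 and 77.9 CPM in other cells, and limma on log2(mean CPM + 1) gave -2.25 (adjusted p = 0.0254). Thinning each cell to 50000 reads gave -2.15 (edgeR adjusted p = 0.0231). Against promyelinating cells these settings gave -1.55 (adjusted p = 0.0366) and -1.497 (edgeR adjusted p = 0.0466).

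Fewer cycling cells had a Stat3 read. A read was found in 17.3% ± 0.398 of cycling, 36.1% ± 0.759 of promyelinating and 36.05% ± 5.72 of other cells (mean ± SD of 2 plates). On plate 1 the shares were 16.98% of 53 cycling cells (exact 95% interval 8.07 to 29.8%) and 32.0% of 175 other cells (25.2 to 39.5%), so that these intervals overlapped. Among cells with a read, the median level was 72.0 and 104 CPM in cycling and 172 and 69.5 CPM in other cells, which overlapped. The highest cell reached 219 and 291 CPM among 9 and 10 cycling cells with a read, against 908 and 1218 CPM among 56 and 87 other cells. A highest value tends to rise with the number of cells, so these do not compare levels per cell. The 3 highest cells held 85.75 and 69.1% of the Stat3 reads in cycling, 55.3 and 53.4% in promyelinating and 22.8 and 28.3% in other cells. After thinning to 50000 reads the shares were 13.8% in cycling, 25.7% in promyelinating and 28.0% in other cells. These intervals were computed over the cells of a plate, which are not replicates, and cover counting error only. Stat3 overlaps Stat5a on the opposite strand, whose own counts were at most 13.4 CPM in any sum.

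Stat2, Stat5a, Stat5b and Stat6 were not called in any comparison by edgeR or DESeq2, and none of them reached an unadjusted p under 0.05. Their log2 differences between cycling and other cells were 0.86 (SE 0.769) for Stat2, -3.43 (SE 2.20) for Stat5a, -0.99 (SE 1.28) for Stat5b and -2.18 (SE 1.18) for Stat6.

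Socs3 was lower in promyelinating cells than in both other classes. Its levels were 9.19 and 6.45 CPM in promyelinating, 74.0 and 76.4 CPM in other and 72.9 and 54.6 CPM in cycling cells. The promyelinating sums lay far below the other 4, and cycling and other cells lay close together. The difference from other cells was -3.19 on the log2 scale (SE 0.482, 9.14-fold, edgeR adjusted p = 0.0144), and cycling cells exceeded promyelinating cells by 3.07 (SE 0.48, 8.37-fold, edgeR adjusted p = 0.00787). Between cycling and other cells it was -0.13 (SE 0.442, edgeR adjusted p = 0.978).

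The share of cells with a Socs3 read differed in the same way. It was 13.5% ± 2.54 in promyelinating, 48.2% ± 1.19 in cycling and 47.7% ± 0.378 in other cells. The exact 95% intervals of the promyelinating shares (7.22 to 27% on plate 1 and 4.82 to 22.6% on plate 2) lay below the 40.4 to 55.7% and 40.7 to 54.3% of other cells. They count cells, which are not replicates, and leave out the spread between plates and animals. Of the promyelinating reads of Socs3, 3 cells held 88.3% on plate 1 and 87.8% on plate 2.

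**Figure D2:**
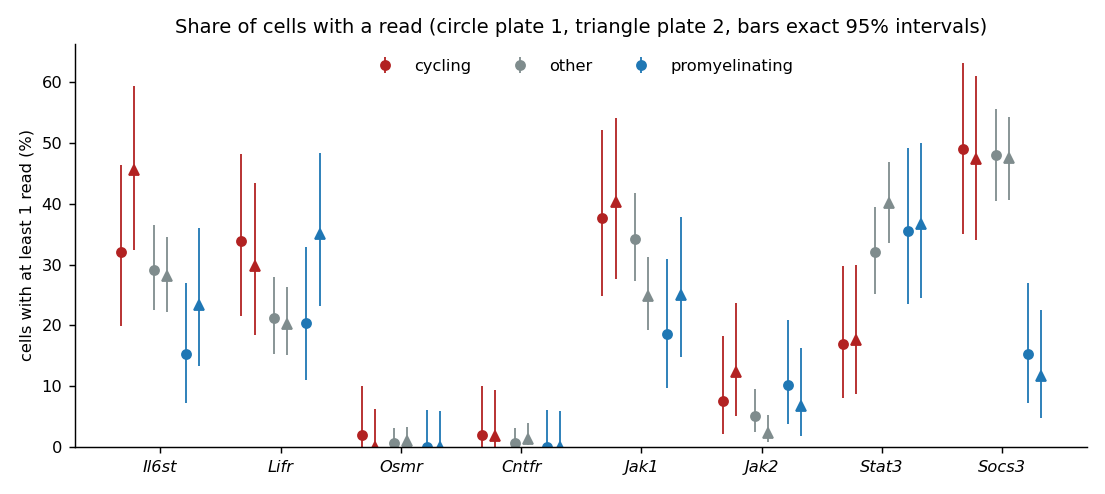
Share of cells with at least 1 read of each member, in percent, by class and plate (circles plate 1, triangles plate 2), with exact 95% intervals as bars. Socs3 is read in 13.5% of promyelinating cells against 47.7% of other cells, Stat3 in 17.3% of cycling cells against 36.05% of other cells, and Osmr and Cntfr are read in 4 and 6 cells in all.

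Counted over the members, 1 of 7 tested was called between promyelinating and other cells (Socs3, lower), where 1.75% of the 13289 genes were called, 1.26% as lower and 0.489% as higher in promyelinating cells. Between cycling and other cells, 1 of 7 was called (Stat3, lower), against 0.971% of all genes, 0.858% as higher and 0.113% as lower in cycling cells. Between cycling and promyelinating cells, 3 of 7 were called (Il6st and Socs3 higher, Stat3 lower in cycling cells), against 5.86% of all genes, 3.69% as higher and 2.17% as lower. The median log2 difference of the 7 members was -1.004, 0.09 and 1.06 in these 3 comparisons, beside -0.07, -0.09 and 0 over all genes tested. The members were listed with results of these data known, and the counts describe the list.

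**Figure D3:**
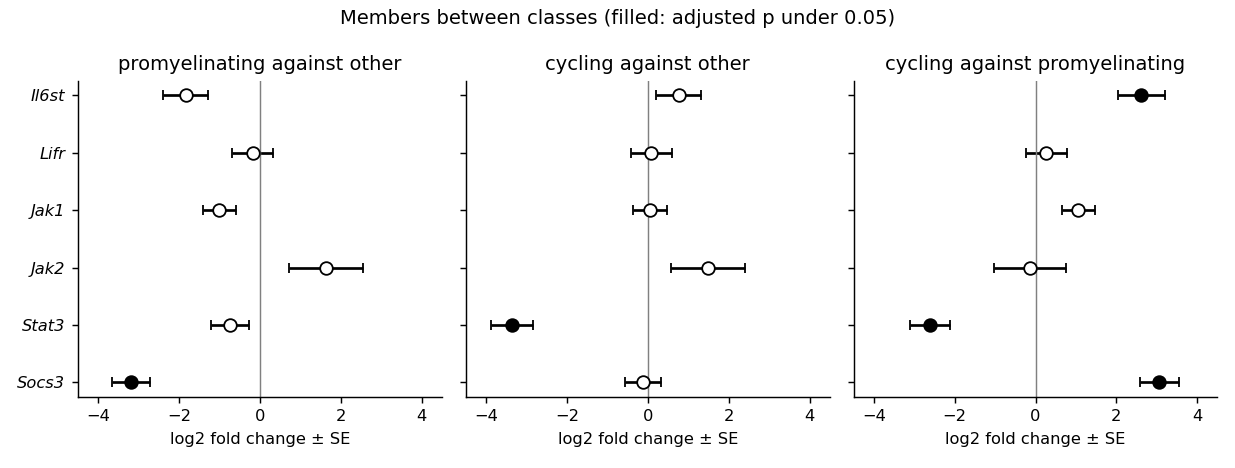
Log2 fold change with its SE for 6 members in the 3 comparisons (edgeR on 6 sums, 2 plates per class), positive values being higher in the class named first, with filled points at an adjusted p under 0.05. Socs3 at -3.19 is filled in the first panel, Stat3 at -3.36 in the second, and Il6st, Stat3 and Socs3 at 2.61, -2.61 and 3.07 in the third.

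Ordered by level per length (CPM per kb of annotated exons), the members changed places between classes. In other cells the order was Socs3 (26.0 ± 0.581 CPM per kb, SD of 2 plates), Jak1 (14.1 ± 5.12), Stat3 (8.93 ± 1.31), Il6st (4.96 ± 2.21), Lifr (3.78 ± 0.954) and Jak2 (1.22 ± 0.891), where only Il6st and Lifr overlapped as neighbours. In cycling cells Socs3 (22.1 ± 4.47), Jak1 (13.7 ± 2.63) and Il6st (7.92 ± 2.58) led without overlap, and Stat3 (0.80 ± 0.271) was below Jak2 (3.23 ± 1.46), which overlapped with Lifr (3.75 ± 0.879). In promyelinating cells Jak1 (6.70 ± 2.12) and Stat3 (5.06 ± 0.327) led and overlapped, followed by Jak2, Lifr and Socs3 (3.59, 3.17 and 2.71 CPM per kb), which overlapped in turn, and by Il6st (1.319 ± 0.67). Osmr and Cntfr stood last in every class, below 0.04 CPM per kb on average.

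No other inhibitor of the pathway was called by edgeR. Of 14 other inhibitors tested, 0 were called by edgeR or DESeq2 in any comparison and 0 reached an unadjusted p under 0.05. They included the further SOCS genes, the PIAS genes and the phosphatases Ptpn1, Ptpn2 and Ptpn11. Over all genes tested, edgeR called 1.75% between promyelinating and other, 0.971% between cycling and other and 5.86% between cycling and promyelinating cells. With 14 genes, 0 calls is close to these shares. The median log2 difference of the 14 inhibitors between promyelinating and other cells was 0.21. Socs1, the closest relative of Socs3 in function, stayed between 0.345 and 4.49 CPM.

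Of 24 genes listed as known Stat3 targets, 21 were tested. Between promyelinating and other cells 4 of the 21 were lower and 0 higher, where 1.26% of all genes tested were called lower, with a median log2 difference of -0.92 beside -0.07 over all genes tested. Between cycling and other cells 0 were called by edgeR, against 0.971% of all genes tested, with a median of -0.12. Among the targets, Ccnd1, which encodes cyclin D1, was the only gene at an unadjusted p under 0.05 and the only call of DESeq2 (637 and 610 CPM in cycling, 1172 and 1093 CPM in other cells). Between cycling and promyelinating cells 4 of the 21 were higher and 0 lower, where 3.69% of all genes tested were called higher.

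The 4 were the same genes in both comparisons. Cebpd, a transcription factor of acute responses, was at 19.97 and 15.6 CPM in promyelinating, 255 and 251 CPM in other and 175 and 261 CPM in cycling cells, a log2 difference of -3.76 (SE 0.316, edgeR adjusted p = 0.000897) from other cells. Tnfrsf12a, a receptor of the TNF family, was at 3.62 and 6.24 CPM against 46.6 and 56.6 CPM in other cells (-3.31, SE 0.522, edgeR adjusted p = 0.0173). Fgl2, a fibrinogen-like protein, had 1 read on each plate in promyelinating cells (0.0192 CPM) against 20.7 and 34.8 CPM in other cells. Fos, an immediate-early gene, was at 1871 and 1961 CPM against 4386 and 4561 CPM (-1.15, SE 0.181, edgeR adjusted p = 0.0176). Gfap and Lcn2, targets known from reactive glia, had 0 reads.

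**Figure D4:**
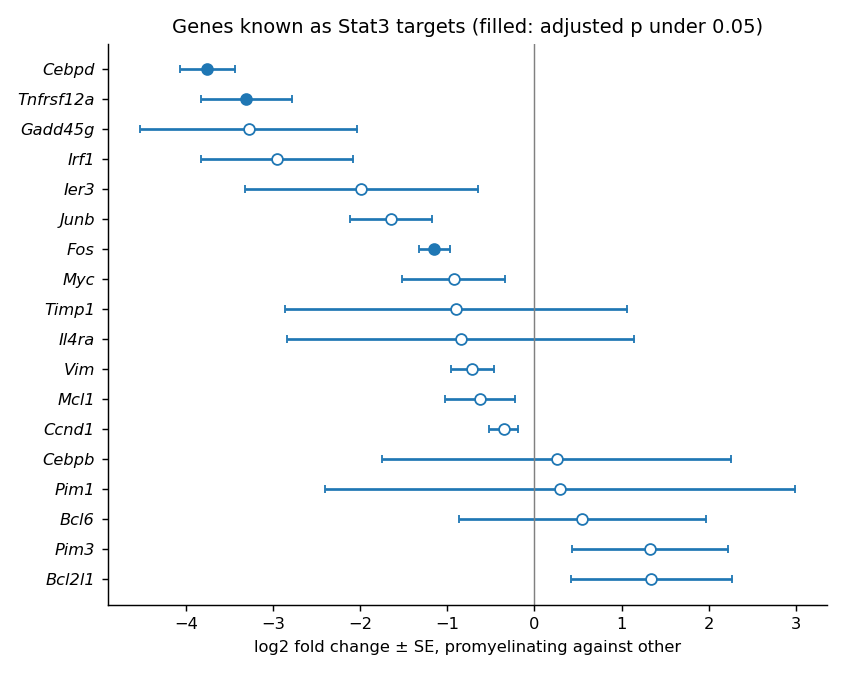
Log2 fold change with its SE between promyelinating and other cells for 18 of the 24 genes listed as Stat3 targets (those with more than 3 reads in each of both classes, which leaves out Fgl2, called with 2 reads in promyelinating cells), with filled points at an edgeR adjusted p under 0.05. Cebpd at -3.76, Tnfrsf12a at -3.31 and Fos at -1.15 are filled, and none of the genes to the right of 0 is.

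Across cells, the genes nearest to Socs3 in level included the immediate-early genes Fos and Egr1. Within plates, its highest Spearman correlation among 5248 genes read in at least 20% of cells was with Fos (0.545 and 0.581 on plates 1 and 2, over 287 and 334 cells), followed by Spry2, an inhibitor of growth factor signalling (0.50 and 0.482), and Egr1 (0.457 and 0.521). Its correlation with Stat3 was 0.19 and -0.03. For Stat3, Il6st, Lifr and Jak1 the nearest genes had a mean correlation of no more than 0.18, which in sparse counts is no finding. H2-Ke6, Tgds and Phf14 were nearest to Stat3, Laptm4b, Kcnh8 and Ngfr to Il6st, Fkbp2, Aptx and Serhl to Lifr, and Ptprz1, Dhrs2 and Gm6169 to Jak1. Cells of a plate share its preparation and the 3 classes, and these values carry no test.

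The relation of Socs3 with Fos was present within classes. The Spearman correlation was 0.572 and 0.581 in cycling, 0.541 and 0.572 in other and 0.328 and 0.377 in promyelinating cells. Among cells with Fos of at least 5000 CPM, a Socs3 read was found in 75.4% of 65 and 74.7% of 87 other cells, in 78.6% of 14 and 77.3% of 22 cycling cells, and in 1 of 6 and 3 of 6 promyelinating cells. Their Socs3 levels were 176 and 162 CPM in other, 193 and 121.3 CPM in cycling and 5.03 and 14.7 CPM in promyelinating cells. Below 1000 CPM of Fos, a Socs3 read was found in 10.9% and 13.2% of other cells, in 1 of 13 and 4 of 15 cycling cells, and in 0 of 21 and 1 of 30 promyelinating cells. Socs3 levels there were 0.686 and 1.79 CPM in other, 3.5 and 11.4 CPM in cycling and 0 and 9.39 CPM in promyelinating cells. From 1000 to 5000 CPM of Fos, the shares were 46.9 and 40.3% in other, 53.85 and 30% in cycling and 25 and 12.5% in promyelinating cells.

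**Figure D5:**
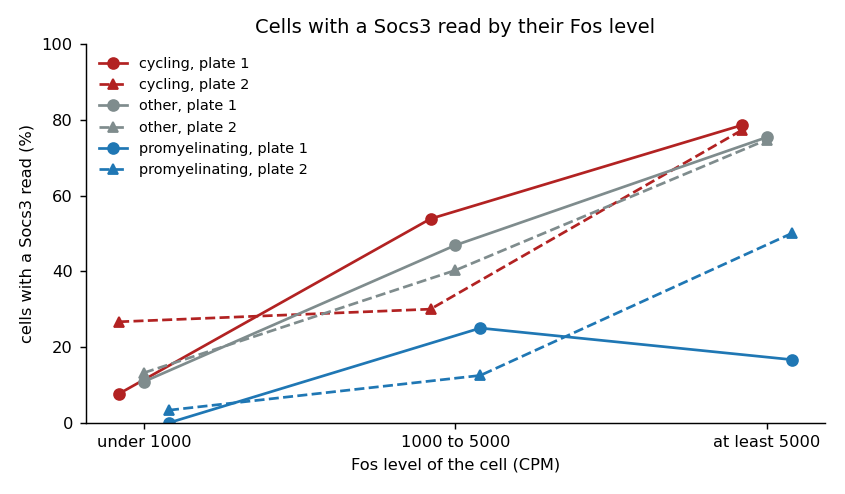
Percent of cells with a Socs3 read in 3 ranges of the cell's Fos level (CPM), by class and plate (solid lines with circles plate 1, dashed lines with triangles plate 2). The share rises with Fos in other cells, from 10.9 and 13.2% to 75.4 and 74.7%, and the upper promyelinating points rest on 6 cells each.

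Part of the genes listed for the dissociation response were lower in promyelinating cells, as Socs3 was. Of the 8 genes listed, 4 were lower and 0 higher in promyelinating than in other cells (Atf3, Ier2, Egr1 and Fos), where 1.26% of all genes tested were called lower, with a median log2 difference of -1.67. Fos and Junb are also among the listed Stat3 targets, so that Fos is counted among the calls of both lists. The heat shock genes Hspa1a and Hspa1b differed by -0.28 (SE 0.319) and 0.56 (SE 0.596) and were not called. Between cycling and promyelinating cells 5 of the 8 were higher, against 3.69% of all genes tested. Between cycling and other cells 0 were called by edgeR or DESeq2, where edgeR called 0.971% of all genes tested, with Hspa1a at an unadjusted p under 0.05. The summed level of the list was 2205 and 2418 CPM in promyelinating, 5842 and 6380 CPM in other and 4727 and 7161 CPM in cycling cells. The cells had been minced and enzymatically dissociated before sorting, and the part of this response in the Socs3 difference was not tested.

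The member calls were repeated in cells chosen by these genes. In the 227 and 247 cells of plates 1 and 2 with Atf3 under 50 CPM, 0 members were called by edgeR in any comparison. Socs3 differed by -2.41 (SE 0.615, edgeR adjusted p = 0.195) between promyelinating and other cells, and Stat3 by -3.26 (SE 0.603, edgeR adjusted p = 0.0715) between cycling and other cells. In the 207 and 236 cells with Fos of at least 1000 CPM, a setting chosen after seeing the data, Socs3 differed by -3.26 (SE 0.71, edgeR adjusted p = 0.104) and Stat3 by -3.29 (SE 0.784, edgeR adjusted p = 0.253) in the same comparisons, and Stat3 between cycling and promyelinating cells by only -0.78 (edgeR adjusted p = 0.621). Both settings hold fewer cells and had larger standard errors. With Atf3 under 50 CPM the Socs3 difference was also smaller in size than the -3.19 of all kept cells. The cause was not tested.

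Reads of 2 members in the same cell were set beside the product of their shares. The Spearman correlation between any 2 of Stat3, Socs3, Il6st, Lifr and Jak1 lay between -0.11 and 0.19 within plates. A read of both Il6st and Lifr was found in 18 of 287 cells on plate 1 and 20 of 334 on plate 2 (6.27 and 5.99%), beside 6.26 and 7.42% from the product of their shares. Il6st and Socs3 were read together in 14.3 and 14.4% of cells, above the products of 11.1 and 12.4%, and after thinning in 9.09 and 9.39%, above 6.34 and 7.44%. Within cycling and within other cells this pair also lay above its product on both plates, and within promyelinating cells it was read together in 1 cell on each plate, below the products of 2.33 and 2.72%. Stat3 and Socs3 were read together in 16.4 and 14.4% of cells, beside 12.4 and 14.6%. These shares pool the 3 classes and carry no test. Among other cells with a Stat3 read, Socs3 was read in 66.1% on plate 1 and 47.1% on plate 2, against 39.5 and 47.7% of those without, so that the plates differed. Each value depends on how often a transcript is captured in a cell.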

How the data were processed

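The authors sorted eYFP-positive cells into 2 plates, sequenced them with Smart-seq2, mapped reads with STAR and obtained gene counts with featureCounts. The submitters' notes name STAR 2.6.1c and GRCm38.p5, while the methods of the study name a human assembly, although the IDs are mouse IDs. The deposited values are raw counts, with no molecular identifiers and no stated strand use. Symbols came from GENCODE M21 (25587 of 25700 IDs matched). Of 743 wells, 122 with under 1500 genes were set aside, and no doublet caller was run.

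Counts were summed per plate and class and tested in 1 model of 6 sums with edgeR 4.0.16 (TMM, filterByExpr, robust quasi-likelihood test), adjusted by Benjamini-Hochberg over 13289 genes and called at an adjusted p under 0.05. An SE is the size of a log2 fold change divided by the root of its F statistic. P-values measure the spread between 2 plates. Sums of 1 plate come from the same mice, and deviations between plates correlated with r of 0.189, 0.228 and 0.135 over 3705 genes, so a plate block was an alternative. Others were DESeq2 1.42.0, limma 3.58.1, other scaling, filters, class limits and cell selections, thinning and single plates (a ratio with no test). Scripts were tested on simulated data.

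Shares have exact Clopper-Pearson 95% intervals over cells, which are not replicates, and a count of 0 a limit of 3 counts. Named are the members, the ligands and receptor chains, at most 3 called genes in each direction of the other lists, and the 3 genes nearest to each member. Further genes, such as Fos among the targets, Egr1, Shc1, Ccnd1, Socs1, Dcn, Cspg4, Hspa1a and Hspa1b, were named after their values were seen. Members, lists and tests were chosen with earlier results of these data known. Some listed genes are not reported here.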

Additional observations from a re-analysis of the deposited data

Results flagged for a closer look

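The 122 wells set aside for having under 1500 detected genes enter no comparison, and members had reads there. On plate 1, Jak1 was at 189 CPM in the summed reads of 83 such wells, above the 102 CPM of the kept cells of that plate, and Il6st was at 101 CPM against 58.8 CPM. In each case the reads came from 5 wells. On plate 2, the same genes were at 2.43 and 0.243 CPM in 39 such wells, below the kept cells, so the excess was seen on 1 plate and was not tested. Stat3, at 20.8 and 3.15 CPM, and Socs3, at 15.7 and 49.3 CPM, were below the kept cells on both plates.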

How the results depend on the processing

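The number of members called was within 1.5 times of the reported one in 37 of 45 repeats. Between promyelinating and other cells it was 2 in place of 1 with DESeq2 and without a filter on low counts, where Il6st was added. With cells of Atf3 under 50 CPM, and with cells of Fos of at least 1000 CPM, it was 0 in all 3 comparisons. Both settings hold fewer cells than the main one. The setting without cells with other-cell markers also held fewer (227 and 261), and its Socs3 call between promyelinating and other cells remained. The cause was not tested. The plate block changed no call of a member (Il6st between cycling and promyelinating cells, adjusted p = 0.0431). With 1 plate left out, the called log2 differences ranged from -3.46 to -2.96 for Socs3 between promyelinating and other cells, from -3.92 to -2.88 for Stat3 between cycling and other cells, and from -2.99 to -2.34, 3.06 to 3.07 and 2.43 to 2.92 for Stat3, Socs3 and Il6st between cycling and promyelinating cells. Adjusted p over the 15 repeats with a test ran from 5.53e-10 to 0.195 for Socs3 in the first comparison and from 1.08e-09 to 0.253 for Stat3 in the second.

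Direction turned only for differences that had no call. Between the 2 single plates, the log2 ratios had opposite signs for Lifr between promyelinating and other cells (-0.759 and 0.388) and for Jak2 between cycling and promyelinating cells (-0.905 and 0.573). Between cycling and other cells they did so for Lifr (-0.382 and 0.581), Jak1 (-0.453 and 0.659), Socs3 (-0.398 and 0.103) and Osmr (-1.68 and 1.56). The turns in repeats on both plates follow. Between promyelinating and other cells, Lifr was at 0.23 with limma on mean log2 values and at 0.12 with Fos of at least 1000 CPM. Between cycling and other cells, Lifr was at -0.047 with limma on mean CPM, -0.18 after thinning and -0.43 with Atf3 under 50 CPM, Jak1 at -0.023 with cells of at least 1000 genes and -0.24 with Fos of at least 1000 CPM, Socs3 at 0.052 with Atf3 under 50 CPM, and Osmr at -0.32 with the plate block. Between cycling and promyelinating cells, Lifr was at -0.12 both after thinning and with Atf3 under 50 CPM, and Jak2 at 0.35 and 0.19 with limma on mean CPM and on mean log2 values and 0.50 after thinning.

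The number of all genes called, 233 between promyelinating and other, 129 between cycling and other and 779 between cycling and promyelinating cells, depended on the tool. DESeq2 called 1019, 806 and 2342, limma on mean log2 values 1200, 738 and 2507, limma on mean CPM 378, 230 and 1340, edgeR without the filter 525, 326 and 1297, edgeR on thinned cells 398, 256 and 1165, with Fos of at least 1000 CPM 136, 68 and 448, and with Atf3 under 50 CPM 126, 105 and 533. Osmr, Cntfr and most ligands were read in few cells, and the part of depth in this was not tested. Thinning to 50000 reads lowered the cells with a Jak2 read from 11 to 10 in cycling, 10 to 8 in promyelinating and 14 to 8 in other cells.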
